A study of Homo sapiens with 3 samples.

Results

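The genes described here were the 75 genes, of 18856 listed in any of the 3 libraries, whose symbols begin with HNRNP, with SRSF and a digit, or with SF3A, SF3B, SNRP, PRPF or U2AF. They comprised 26 hnRNP symbols, 12 SR protein genes, 9 SF3A/SF3B genes, 12 SNRP genes, 13 PRPF genes and 3 U2AF genes. The members were taken by symbol prefix alone, without use of a measured value. The study examined a low-input RNA-seq method without cDNA pre-amplification, called LIEA (low-input, equal-amplification), in which fragmented mRNA receives adapters directly, the library is amplified by PCR, and each molecule is amplified again on beads for the Ion Torrent sequencer. LIEA was applied to HBE, a line of human bronchial epithelial cells, and to A549, a line of human lung adenocarcinoma cells. Smart-seq2, in which oligo-dT-primed full-length cDNA is amplified before library construction and sequenced on an Illumina instrument, was applied to HBE. Each library began with about 10 pg of polyA+ mRNA diluted from a bulk extraction, so each library represents a cell population and not single cells. Fewer cells with a transcript and less transcript per cell cannot be told apart in such material. With 1 library per condition no replicate error can be given and no test was possible. What separates A549 from HBE cannot be told apart from what separates any 2 libraries, nor can library method be told apart from sequencing platform.

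A pre-mRNA is spliced by the spliceosome, which assembles from small nuclear ribonucleoproteins (snRNPs) and many further proteins. The U1 snRNP binds the 5′ splice site, U2AF binds the 3′ splice site, the U2 snRNP with its SF3A and SF3B subcomplexes binds the branch site, and the U4/U6.U5 tri-snRNP then joins before the reaction is catalysed. SR proteins, which carry arginine/serine repeats, mostly promote the use of the exons they bind, whereas the heterogeneous nuclear ribonucleoproteins (hnRNPs) coat nascent transcripts and often oppose exon inclusion.

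Several hnRNP symbols denote copies of another member, and their reads can be shared. The first 150 coding bases of HNRNPC (chr14:21702203-21702352, GRCh37, minus strand) and of its copy HNRNPCL1 (chr1:12907993-12908142, minus strand) are shown because HNRNPCL1 stood lowest of all members in LIEA relative to Smart-seq2. Capitals mark bases that differ between them.
HNRNPC: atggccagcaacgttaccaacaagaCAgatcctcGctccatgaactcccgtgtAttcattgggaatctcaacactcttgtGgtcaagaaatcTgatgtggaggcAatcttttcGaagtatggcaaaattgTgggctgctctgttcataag
HNRNPCL1: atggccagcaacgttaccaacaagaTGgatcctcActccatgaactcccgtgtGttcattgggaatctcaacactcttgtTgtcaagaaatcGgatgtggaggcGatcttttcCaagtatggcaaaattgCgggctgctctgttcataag
HNRNPC and HNRNPCL1 differed at 46 of 879 coding bases, which is 94.77% identity, and their longest identical run was 73 bases. HNRNPA1L2 is a copy of HNRNPA1. How reads matching more than 1 gene were assigned is not given in the sources used here, so values of these rows are uncertain.

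The 250 bases before the annotated start are shown for 4 members, all from RefSeq on GRCh38.p14. By LIEA, SNRPB (chr20:2470790-2471039, minus strand) and SNRPB2 (chr20:16729776-16730025, plus strand) were higher in A549 than in HBE. PRPF19 (chr11:60906586-60906835, minus strand) and PRPF38B (chr1:108692060-108692309, plus strand) were lower. Against Smart-seq2 of HBE, SNRPB2 and PRPF19 did not keep these directions. Capitals mark the string CCGGAAG or its complement CTTCCGG, called the ETS core here. Only this exact string was counted. Near variants, such as ccggaaa in the PRPF19 window and ccggaac in the SNRPB window, were not.
SNRPB: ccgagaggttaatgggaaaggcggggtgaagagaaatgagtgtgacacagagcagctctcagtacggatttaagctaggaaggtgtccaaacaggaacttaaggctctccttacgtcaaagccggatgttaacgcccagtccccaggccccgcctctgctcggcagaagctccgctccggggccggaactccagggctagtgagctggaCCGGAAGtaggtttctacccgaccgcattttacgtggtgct
SNRPB2: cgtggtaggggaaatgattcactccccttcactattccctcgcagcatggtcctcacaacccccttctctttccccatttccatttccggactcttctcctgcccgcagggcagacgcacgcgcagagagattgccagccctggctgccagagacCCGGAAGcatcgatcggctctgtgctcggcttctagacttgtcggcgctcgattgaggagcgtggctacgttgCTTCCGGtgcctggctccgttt
PRPF19: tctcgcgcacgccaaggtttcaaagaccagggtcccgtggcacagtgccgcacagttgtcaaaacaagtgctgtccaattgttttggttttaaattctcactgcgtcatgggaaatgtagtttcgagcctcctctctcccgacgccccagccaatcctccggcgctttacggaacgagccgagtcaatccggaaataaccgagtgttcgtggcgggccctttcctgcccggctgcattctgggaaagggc
PRPF38B: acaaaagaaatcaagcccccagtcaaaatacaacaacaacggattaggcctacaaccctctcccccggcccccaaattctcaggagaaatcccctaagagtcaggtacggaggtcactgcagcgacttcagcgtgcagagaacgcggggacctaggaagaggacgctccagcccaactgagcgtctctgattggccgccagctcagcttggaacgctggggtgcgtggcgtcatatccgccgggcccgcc
This exact string was found once in the SNRPB window, 2 times in the SNRPB2 window and 0 times in the windows of PRPF19 and PRPF38B. These 4 windows are examples, and those of the other members at least 2-fold apart are not shown. Whether the string goes with the direction of a difference was not tested. A window was given for 64 of the 75 members, and 21 of these held the ETS core on either strand in at least 1 window. Counted by window, 23 of 87 member windows (26.4%) and 2991 of all 35116 windows (8.52%) held it. By window, the GC box GGGCGG was in 50.6% of member windows and 42.6% of all windows, and the CCAAT box in 40.2% and 32.0%. The TATA box TATAAA was in 8.05% of member windows and 10.7% of all, and the E box CACGTG in 10.3% and 6.34%. No motif contains another. A match describes the letters of a window and is not evidence of binding.

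Depth, as recovered from the deposited values, was 9845150 mapped reads in the Smart-seq2 library, 4605855 in the HBE library made by LIEA and 4154060 in the A549 library. These listed 16498, 16073 and 16711 genes. Levels are given as rpkM, the reads of a gene per kilobase of transcript scaled to library depth, and ratios as log2, where 1 is 2-fold. The labelled cells were checked against markers. All 5 epithelial markers were listed in each library. The 5 basal cell markers of bronchial epithelium (KRT5, KRT14, KRT17, KRT6A and TP63) summed to 1706 rpkM in LIEA of HBE, 6464 rpkM in Smart-seq2 of HBE and 9.07 rpkM in LIEA of A549, where KRT14 was not listed. The 7 detoxification genes typical of A549 summed to 13940 rpkM there, against 295 and 270 rpkM in the HBE libraries by LIEA and Smart-seq2. Of the blood, fibroblast, endothelial and neuronal markers, CD3E, HBB, COL1A2 and DCN were listed in no library, and the summed levels were 0.443 to 44.8 rpkM per list and library. Others were present. CD68 was at 35.3 rpkM in LIEA of HBE, 35.7 rpkM in Smart-seq2 of HBE and 18.4 rpkM in A549. CD14 was at 26.3 rpkM in A549, with SYT1 at 11.6 and SNAP25 at 10.3 rpkM there. CDH5 was at 10.8 and 8.86 rpkM in HBE by LIEA and Smart-seq2, and was not listed in A549.

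Nearly all members were listed in every library. The 2 LIEA libraries each listed 74 of the 75, and Smart-seq2 listed 75. The missing member was HNRNPCL2, another HNRNPC copy, which had 1 read in Smart-seq2 (0.0879 rpkM); a count of 0 allows up to 3 reads in either LIEA library. With a limit of 1 rpkM, 71, 71 and 72 members were present. These genes were abundant: on the log2 rpkM scale the median member stood at 5.70 by LIEA and 5.48 by Smart-seq2 in HBE, and at 5.53 in A549, against 2.49, 1.93 and 2.29 for all listed genes. Together they took 1.73% of mapped reads in Smart-seq2 (95% Wilson interval 1.73 to 1.74%), 1.43% in the HBE library by LIEA (1.42 to 1.44%) and 1.2% in the A549 library (1.19 to 1.21%). All intervals given here cover counting error only and treat each read as independent. Reads amplified by PCR are not independent molecules, so the intervals can be too narrow.

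The hnRNP genes were the family with the highest summed level in each library. Per length, they made up 46.0% of the summed member rpkM in HBE by LIEA, 50.2% in HBE by Smart-seq2 and 38.7% in A549. SNRP genes made up 15.1%, 16.1% and 23.9% in the same order, so their share was highest in A549. The SR protein genes reached 11.5%, 16.6% and 11.9%, highest in Smart-seq2. The most abundant member was SNRPB in A549 (412 rpkM), while in HBE it was HNRNPA1 by LIEA (348 rpkM) and HNRNPK by Smart-seq2 (570.4 rpkM). At the other end SRSF12 and HNRNPU-AS1, an antisense row, were below 1 rpkM in each of the 3 libraries.

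**Figure D1:**
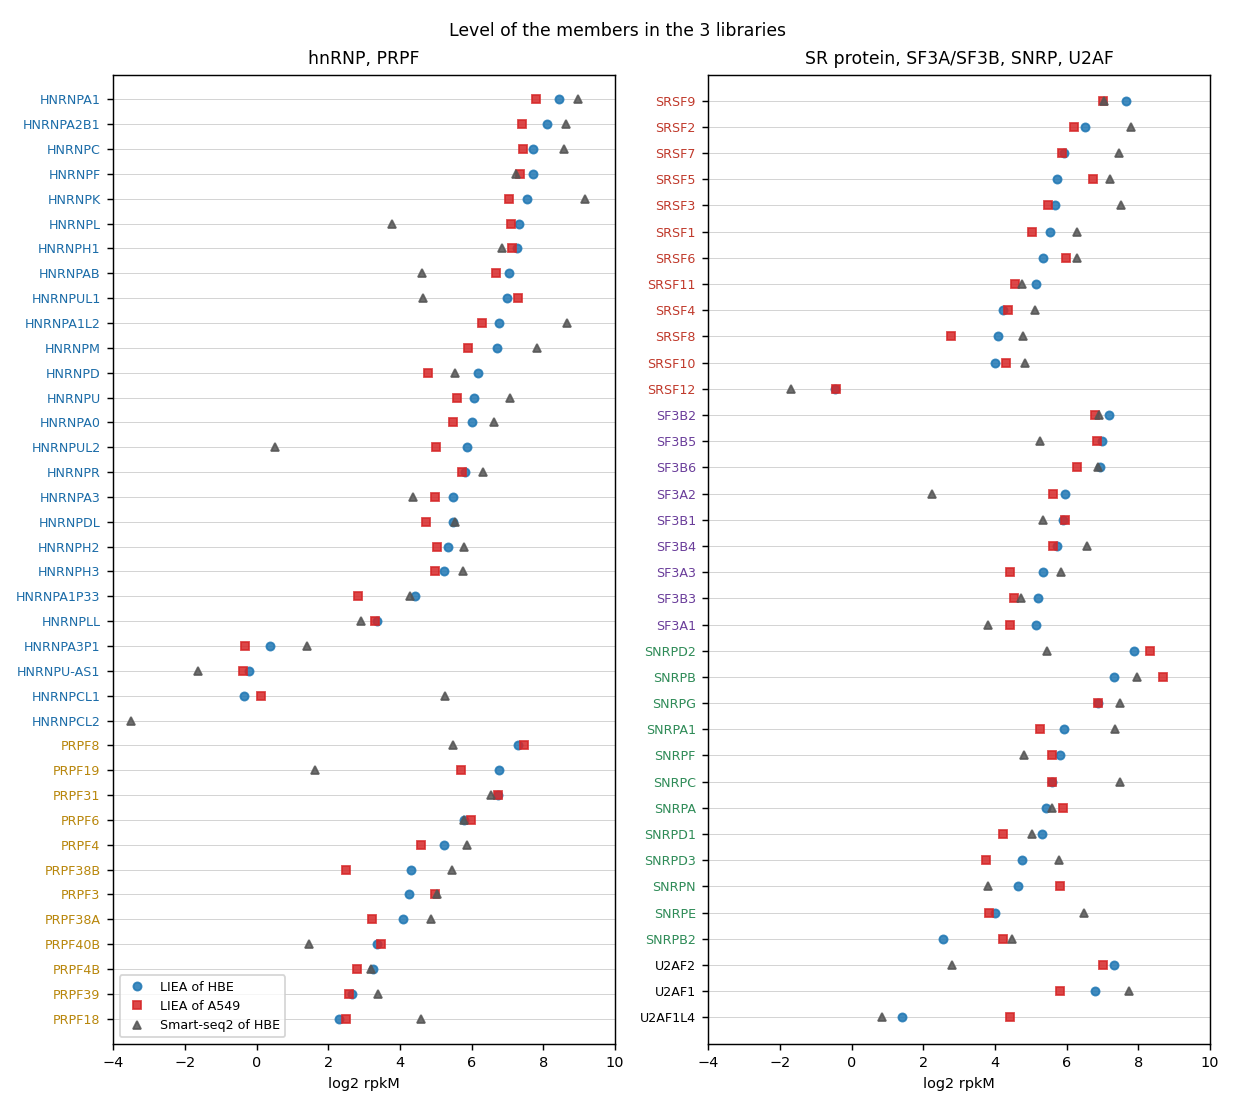
Level of the members in the 3 libraries, on the log2 rpkM scale (horizontal axis), with genes on the vertical axis ordered within family by LIEA of HBE and coloured by family. Circles are LIEA of HBE, squares LIEA of A549 and triangles Smart-seq2 of HBE, 1 library each. Circle and square are at least 2-fold apart for 5 members higher and 6 lower in A549, while Smart-seq2 stands far to the left for HNRNPUL2, PRPF19 and U2AF2.

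For the comparison of cell lines by LIEA, genes with a mean of at least 1 rpkM over the 2 libraries were compared, which left 71 members and 12881 genes in all. HNRNPCL1, HNRNPCL2, HNRNPU-AS1 and SRSF12 did not reach this level. Most members lay slightly lower in A549. Of the 71, 53 were below 0 on the log2 ratio scale (74.6%), against 55.5% of all compared genes, and the median log2 ratio was -0.32 against -0.14 for all genes. Few were far apart. At least 2-fold higher in A549 were 5 members (7.04%), against 18.8% of all compared genes, and at least 2-fold lower were 6 (8.45%), against 20.2%. After the median of all genes was subtracted, the median of the members was -0.18, with 5 higher (background 21.1%) and 4 lower (background 16.7%). Because members are abundant and low genes have noisier ratios, the same counts were taken among genes with a mean of at least 10 rpkM: 5 of 67 members (7.46%) were higher and 6 (8.96%) lower, against 14.5% and 17.9% of 6126 genes. At a limit of 1.5-fold, 7 members (9.86%) were higher, against 26.5% of all genes, and 22 (31.0%) were lower, against 33.5%.

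**Figure D2:**
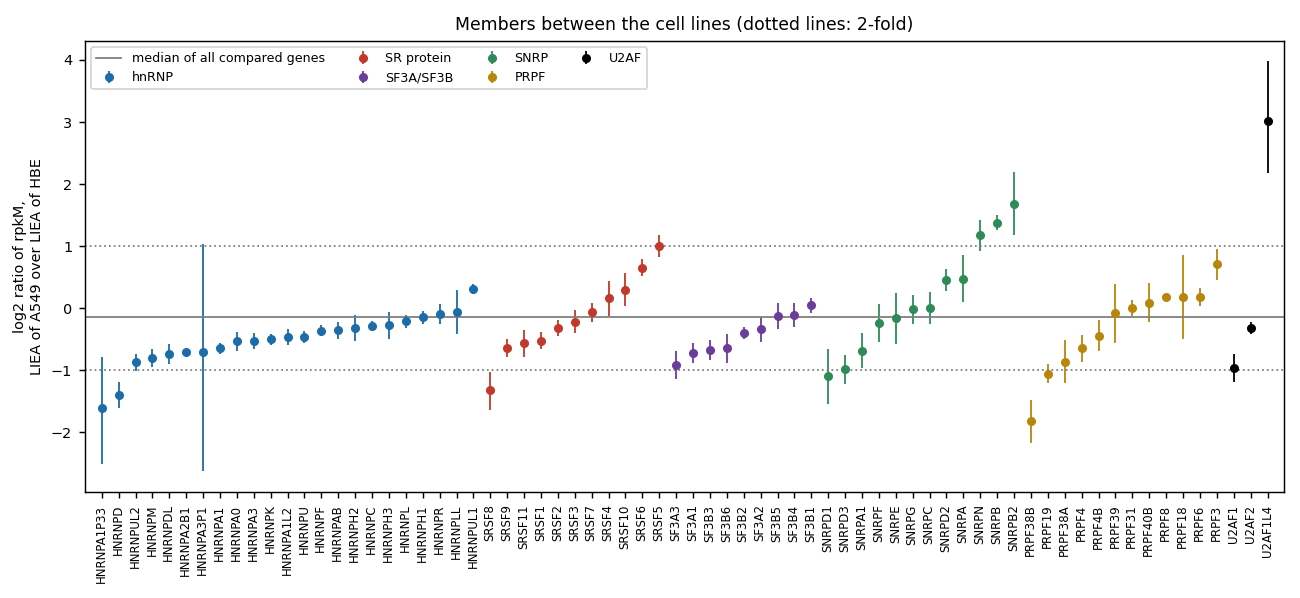
Log2 ratio of rpkM in LIEA of A549 over LIEA of HBE (vertical axis) for the compared members, grouped and coloured by family. Bars are exact 95% counting intervals from the reads, the solid line is the median of all compared genes (-0.14) and dotted lines mark 2-fold. The blue hnRNP points lie below 0 except HNRNPUL1, and the points above the upper dotted line include 3 SNRP genes and U2AF1L4.

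Among the hnRNP genes, 22 of the 23 compared were below 0 as deposited, and 20 of 23 after centring on the median of all genes. After centring on genes of like GC content, 18 of 23 were below 0. Their median log2 ratio as deposited was -0.46. The background share below 0 is the 55.5% given above. None was at least 2-fold higher, against 18.8% of all genes, and HNRNPD and the pseudogene HNRNPA1P33 (8.70%) were at least 2-fold lower, against 20.2%.

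HNRNPD, also called AUF1, binds AU-rich elements and takes part in mRNA turnover. It was at 72.1 rpkM in LIEA of HBE, 46.3 rpkM in Smart-seq2 of HBE and 27.5 rpkM in LIEA of A549, with 749, 1029 and 258 reads. Its level in A549 was below both HBE libraries. The log2 ratio of A549 to HBE was -1.39 (exact Clopper-Pearson counting interval -1.60 to -1.18, the method used for all ratios). Its paralogue HNRNPDL was at 44.5 rpkM in LIEA of HBE and 26.7 rpkM in LIEA of A549, a log2 ratio of -0.73 (-0.90 to -0.57).

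HNRNPA1, an exon-silencing factor, was at 348 rpkM in HBE and 222 rpkM in A549 by LIEA (log2 ratio -0.65), and HNRNPA2B1, a close relative that also binds RNA for transport, was at 276 and 169 rpkM (-0.71). HNRNPAB stood at 132 and 103 rpkM (-0.36). HNRNPA0, HNRNPA1, HNRNPA2B1, HNRNPA3 and HNRNPAB, 5 genes of the A/B group, lay below 0 under both scalings. HNRNPM was at 104 and 59.7 rpkM (-0.80) and HNRNPUL2, an HNRNPU relative, at 58.6 and 32.0 rpkM (-0.87). Smaller differences were seen in HNRNPC, which binds uridine tracts (212 and 174 rpkM, -0.28), and HNRNPK, a poly(C)-binding protein (188 and 133 rpkM, -0.50). In the F/H group, which binds G-rich tracts, HNRNPF was at 209 and 162 rpkM (-0.36), HNRNPH1 at 155 and 139.8 rpkM (-0.15) and HNRNPH2 at 40.9 and 32.8 rpkM (-0.32).

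HNRNPL, HNRNPLL and HNRNPR had log2 ratios of -0.21, -0.06 and -0.09. The intervals of HNRNPLL (-0.42 to 0.30) and HNRNPR (-0.25 to 0.07) include 0. HNRNPU, a scaffold attachment factor, had a log2 ratio of -0.46. Part of its annotated exons overlaps COX20 on the other strand, by 3502 bases. HNRNPUL1 was the exception, at 127 rpkM in HBE and 157 rpkM in A549, a log2 ratio of 0.31 (0.23 to 0.39).

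The SNRP genes behaved differently from each other. Of 12 compared, 3 were at least 2-fold higher in A549 and 1 at least 2-fold lower, against 18.8% and 20.2% of all genes. As deposited, 6 lay on each side of 0. After centring on genes of like GC content, 9 were above 0 and 3 below.

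SNRPB encodes the B and B′ proteins of the heptameric Sm ring that is shared by the spliceosomal snRNPs. It was at 159 rpkM in LIEA of HBE (842 reads), 251 rpkM in Smart-seq2 of HBE (2851 reads) and 412 rpkM in LIEA of A549 (1975 reads). The A549 level was above both HBE libraries, and was 2.60-fold that of LIEA of HBE (log2 ratio 1.38, counting interval 1.26 to 1.5). SNRPN, an SNRPB paralogue from the imprinted region of chromosome 15, was at 24.9 rpkM in LIEA of HBE, 14 rpkM in Smart-seq2 of HBE and 56.4 rpkM in LIEA of A549 (log2 ratio 1.18, 0.93 to 1.43). It too was highest in A549. It made up 13.6% and 12% of the SNRPN and SNRPB level in the HBE and A549 LIEA libraries. SNRPN shares its transcript with SNURF, which had at most 2 reads in any library.

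SNRPB2, the U2 snRNP protein B″ that is not part of the Sm ring, was at 5.81 rpkM in LIEA of HBE (45 reads), 22.2 rpkM in Smart-seq2 of HBE (367 reads) and 18.6 rpkM in LIEA of A549 (130 reads). Here LIEA of HBE stood apart as low, and the A549 level was not above Smart-seq2 of HBE. The log2 ratio between the LIEA libraries was 1.68 (1.18 to 2.20).

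The other Sm genes lay on either side of 0. SNRPD1 was at 39.7 rpkM in LIEA of HBE and 18.6 rpkM in LIEA of A549 (log2 ratio -1.09, -1.54 to -0.66), and SNRPD3 at 26.7 and 13.5 rpkM (-0.98). After centring on the median of all genes SNRPD1 was at -0.95, and 0 SNRP genes were at least 2-fold lower. SNRPD2 was at 234 and 322 rpkM (0.46), and SNRPG at 118 and 117 rpkM (-0.02). Within the ring of 7, with SNRPB counted for the B position, the highest gene exceeded the lowest 14.8-fold by LIEA and 8.91-fold by Smart-seq2 in HBE, and 30.5-fold in A549. A ring holds 1 copy of each protein. Of the U1 proteins, SNRPA had a log2 ratio of 0.47 (0.10 to 0.85) and SNRPC of 0.00 (-0.25 to 0.26).

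The highest ratio of any member was in the U2AF family. U2AF1L4, a shorter relative of the small U2AF subunit, was at 2.64 rpkM in LIEA of HBE (13 reads), 1.81 rpkM in Smart-seq2 of HBE (19 reads) and 21.4 rpkM in LIEA of A549 (95 reads). Both HBE libraries were low and close to each other. The A549 level was 8.10-fold that of LIEA of HBE, a log2 ratio of 3.02 (counting interval 2.18 to 3.98). The gene lies on chr19:36233365-36236346 (GRCh37, minus strand) between 2 genes that do not overlap it. The 5′ end of IGFLR1, on the same strand, is 11 bases away, and that of PSENEN, on the plus strand, is 155 bases away. These neighbours were also higher in A549, with log2 ratios of 2.41 and 1.94, and the part of shared reads in the value of U2AF1L4 was not tested.

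The canonical subunits lay the other way. U2AF1, which contacts the AG of the 3′ splice site, was at 110.5 rpkM in HBE and 56.6 rpkM in A549 (log2 ratio -0.96, -1.19 to -0.74). U2AF2, which binds the polypyrimidine tract, was at 161 and 129 rpkM (-0.32, -0.41 to -0.22).

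None of the 9 SF3A/SF3B genes was 2-fold apart, against 18.8% of all genes higher and 20.2% lower. Below 0 were 8 of 9, against 55.5% of all genes, or 6 of 9 after centring on all genes and 8 of 9 after centring within GC bins. SF3A3 had the lowest log2 ratio (-0.91, -1.13 to -0.69). SF3B1, the branch-site-binding subunit that is recurrently mutated in leukaemias and other cancers, was at 59.3 rpkM in HBE and 61.5 rpkM in A549 (log2 ratio 0.05, -0.07 to 0.17), so its interval included equality. The 3 most abundant, SF3B2, SF3B5 and SF3B6, had log2 ratios of -0.39, -0.12 and -0.64.

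Of the 13 PRPF genes, 0 were at least 2-fold higher and 2 (15.4%) at least 2-fold lower in A549, against 18.8% and 20.2% of all genes. PRPF38B, a protein related to the tri-snRNP activation factor PRPF38A, was at 19.8 rpkM in LIEA of HBE (343 reads), 43.5 rpkM in Smart-seq2 of HBE (1607 reads) and 5.64 rpkM in LIEA of A549 (88 reads). A549 was below both HBE libraries. Its log2 ratio of -1.81 (counting interval -2.17 to -1.47) was the lowest of all members. PRPF19, the ubiquitin ligase of the Prp19 complex, was at 108 rpkM in LIEA of HBE and 52.2 rpkM in LIEA of A549 (log2 ratio -1.05, -1.21 to -0.90). After centring it was at -0.91, inside the 2-fold limit.

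Of the tri-snRNP proteins, PRPF8, the scaffold of the catalytic centre, was at 156 and 177 rpkM in HBE and A549 (log2 ratio 0.18, 0.12 to 0.23), PRPF31 at 107 rpkM in each (-0.13 to 0.13) and PRPF6 at 55.8 and 63.5 rpkM (0.19, 0.04 to 0.33). In the same group PRPF3 had a log2 ratio of 0.71 (0.45 to 0.96), PRPF4 of -0.65 and PRPF4B of -0.44. The U1-associated genes PRPF39 and PRPF40B had log2 ratios of -0.08 and 0.09.

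Of the 11 compared SR protein genes, 1 was 2-fold higher and 1 was 2-fold lower (9.09% each), against 18.8% and 20.2% of all genes. Below 0 were 7 (63.6%), against 55.5% of all genes, and 5 after centring within GC bins. SRSF5 was at 53.0 rpkM by LIEA in HBE, 106 rpkM in A549 and 148 rpkM in Smart-seq2 of HBE, so LIEA of HBE was the lowest. Its log2 ratio of 1.0 (counting interval 0.82 to 1.18) lay at the 2-fold limit itself. SRSF8, an intronless SRSF2 relative, was at 16.9, 6.76 and 27.6 rpkM in the same order, a log2 ratio of -1.32 (-1.63 to -1.02). A549 was the lowest of its 3 libraries. The abundant SRSF9, SRSF2 and SRSF7 had log2 ratios of -0.63, -0.31 and -0.07.

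The position of A549 relative to both HBE libraries was counted for the members that were compared. It was the lowest of the 3 libraries for 39 of 71 (54.9%), the highest for 10 (14.1%) and between the HBE libraries for 22 (31.0%). Over 12091 compared genes listed in all libraries the shares were 37.8% lowest, 31.7% highest and 30.5% between. Of the 5 members at least 2-fold higher in A549 by LIEA, U2AF1L4, SNRPB and SNRPN were above Smart-seq2 of HBE as well, whereas SNRPB2 and SRSF5 were not. Of the 6 lower members, PRPF38B, HNRNPD, SRSF8, SNRPD1 and HNRNPA1P33 were below it as well, and PRPF19 was not. This position mixes the 2 methods, and Smart-seq2 was not run on A549.

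Other genes of the splicing machinery were taken from lists of 144 symbols, of which 141 were listed in at least 1 library. The unlisted symbols SNU13, SF4 and SR140 are other names of NHP2L1, SUGP1 and U2SURP, which were listed. Of the 137 compared between the cell lines, 3 were at least 2-fold higher and 24 at least 2-fold lower in A549, with a median log2 ratio of -0.41. These were 2.19% and 17.5%, against 18.8% and 20.2% of all genes. Among the proteins that recognise the 3′ splice site, 13 of 14 were below 0, and among SR-related proteins and SR kinases 16 of 20, against 55.5% of all genes. After centring on all genes these were 12 of 14 and 14 of 20. As deposited, 14 of 24 other snRNP proteins, 6 of 8 Lsm ring genes and 11 of 21 Prp19 complex and catalytic step genes were below 0. So were 5 of 7 exon junction complex genes, 22 of 30 other RNA-binding regulators and 8 of 13 snRNP assembly genes. Lower by at least 2-fold were 4 of 24 other snRNP proteins, 1 of 8 Lsm ring genes, 4 of 21 Prp19 complex and catalytic step genes, 2 of 14 genes of 3′ splice site recognition, 3 of 20 SR-related genes, 0 of 7 exon junction complex genes, 5 of 30 other RNA-binding regulators and 5 of 13 snRNP assembly genes. After centring on the median of all genes, 17 of the 137 (12.4%) were at least 2-fold lower, against 16.7% of all genes. Of the 13 snRNP assembly genes, 2 were then at least 2-fold lower. The highest ratio was that of CRNKL1, a Prp19-associated protein (log2 ratio 1.78), and the lowest ratio between listed values was that of ESRP2 (-6.53), while ESRP1 was not listed in A549.

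For the comparison of methods on HBE mRNA, 72 members and 12119 genes had a mean of at least 1 rpkM. LIEA of HBE enters this comparison and the comparison of cell lines alike, so the values of each are given on their own. Here 13 members were at least 2-fold higher in LIEA (18.1%), against 28.7% of all compared genes, and 17 were at least 2-fold lower (23.6%), against 21.0%. The median log2 ratio of LIEA to Smart-seq2 was -0.51 for the members and 0.09 for all genes. Below 0 were 41 of 72 members (56.9%), against 47.8% of all genes. Among genes with a mean of at least 10 rpkM, 12 of 66 members (18.2%) were higher and 16 (24.2%) lower, against 22.5% and 25.6% of 6089 genes. At 1.5-fold, 17 members (23.6%) were higher and 33 (45.8%) lower, against 37.3% and 31.2%.

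**Figure D3:**
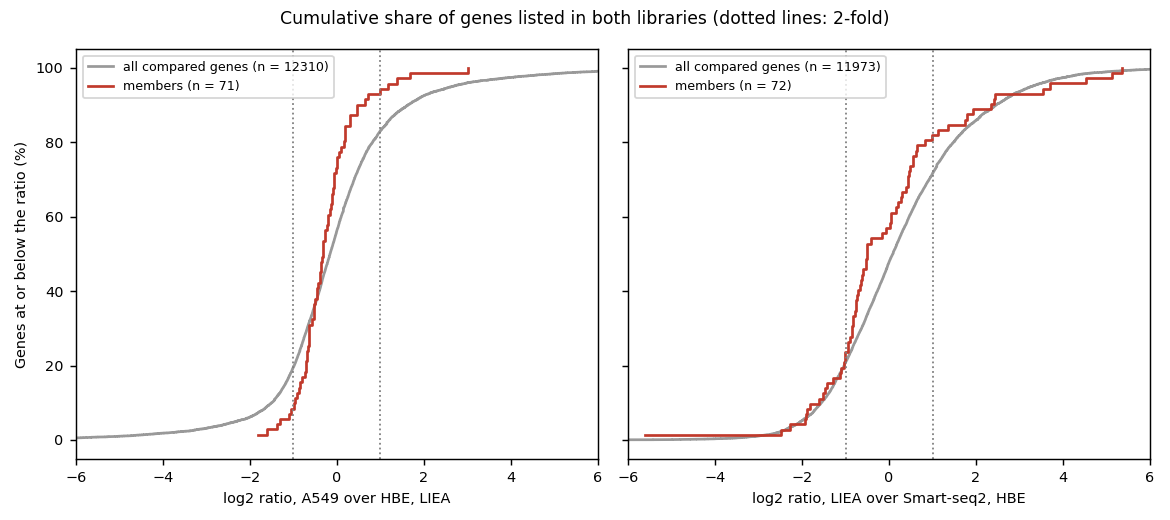
Cumulative share of genes (vertical axis, %) at or below a given log2 ratio (horizontal axis) for genes listed in both libraries, with A549 over HBE on the left and LIEA over Smart-seq2 on the right. The red line of the members is steeper than the grey line of all compared genes on the left (medians -0.32 and -0.14), and on the right it lies to the left in the middle range (medians -0.51 and 0.09).

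The spread between members was wide. The highest log2 ratio was that of HNRNPUL2, at 58.6 rpkM in LIEA of HBE (1388 reads) and 1.42 rpkM in Smart-seq2 (72 reads), a log2 ratio of 5.36 (counting interval 5.02 to 5.73). PRPF19 was at 108 rpkM (1167 reads) and 3.08 rpkM (71 reads), a log2 ratio of 5.13 (4.79 to 5.5). U2AF2 was at 161 rpkM (2319 reads) and 6.97 rpkM (215 reads), a log2 ratio of 4.53 (4.32 to 4.74). The same genes were at 32.0, 52.2 and 129 rpkM in LIEA of A549, so the Smart-seq2 library was the low value for each. SF3A2, at 61.7 and 4.74 rpkM (3.70), and HNRNPL, at 160.2 and 13.8 rpkM (3.53), followed.

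The remaining members at least 2-fold higher in LIEA were SNRPD2 (log2 ratio 2.43), HNRNPAB (2.42), HNRNPUL1 (2.36), PRPF40B (1.92), PRPF8 (1.80), SF3B5 (1.74), SF3A1 (1.35) and HNRNPA3 (1.12). HNRNPUL1 shares 215 exonic bases with TGFB1 on the opposite strand, and strand use in counting is not given in the sources used here. Longer overlaps of this kind were those of HNRNPA3 with NFE2L2 (3509 bases) and of PRPF40B with FMNL3 (2643) and FAM186B (1959). Shorter ones were found for HNRNPAB, SF3A1, SF3A2 and SNRPD2. Of the members lower in LIEA, PRPF18 shares 1828 such bases with FRMD4A and SRSF2 shares 823 with MFSD11.

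Partners of a complex were balanced differently by the 2 methods. The U2AF2 level was 1.46 times that of U2AF1 by LIEA in HBE and 2.28 times in A549, but 0.0329 times in Smart-seq2 of HBE. The subunits form a heterodimer. The 3 SF3A genes spanned 1.74-fold by LIEA in HBE, 2.27-fold in A549 and 12.1-fold by Smart-seq2. For the 6 SF3B genes the span was similar, at 3.93-fold, 5.01-fold and 4.55-fold.

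Of the 12 SNRP genes, 1 was at least 2-fold higher in LIEA and 5 at least 2-fold lower, against 28.7% and 21.0% of all genes, and after centring within GC bins 3 were higher and 5 lower. The 5 lower as deposited were SNRPE (log2 ratio -2.48), SNRPB2 (-1.93), SNRPC (-1.88), SNRPA1 (-1.42) and SNRPD3 (-1.04). SNRPE, a Sm protein, was at 88.7 rpkM in Smart-seq2 (1351 reads), 15.9 rpkM by LIEA in HBE (113 reads) and 14.2 rpkM in A549, so both LIEA libraries were low.

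Of the 11 SR protein genes, 9 were below 0, 0 were at least 2-fold higher and 4 were at least 2-fold lower. The shares of all genes were 47.8%, 28.7% and 21.0%. The 4 were SRSF3 (51.2 rpkM in LIEA and 182 rpkM in Smart-seq2, log2 ratio -1.83), SRSF7 (61.2 and 176 rpkM, -1.53), SRSF5 (53.0 and 148 rpkM, -1.48) and SRSF2 (91.6 and 223 rpkM, -1.28). SRSF9 (0.61) and SRSF11 (0.39) lay on the other side. After centring on genes of like GC content, 9 of 11 were below 0, 5 were at least 2-fold lower and 1, SRSF11, was at least 2-fold higher.

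PRPF18, a factor of the catalytic steps, was at 4.97 rpkM in LIEA of HBE (39 reads) and 24.1 rpkM in Smart-seq2 (404 reads), a log2 ratio of -2.28, and PRPF38B was at -1.13. Of the hnRNP genes, HNRNPK had 188 and 570.4 rpkM (-1.60), HNRNPM 104 and 226 rpkM (-1.12) and HNRNPU 66.6 and 134.5 rpkM (-1.01). The pseudogene HNRNPA3P1, 96.0% identical to HNRNPA3 over 746 bases, was at -1.02 with 9 and 39 reads (-2.25 to 0.05).

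The copies stood out. HNRNPA1 and HNRNPA1L2 had 9529 and 9530 reads in Smart-seq2 of HBE, nearly equal counts. In LIEA they had 3084 and 1179 reads for HBE and 1778 and 771 reads for A549. HNRNPA1L2 thus made up 27.7% of the reads of the pair by LIEA in HBE and 30.2% in A549. Its log2 ratio of LIEA to Smart-seq2 was -1.92 while that of HNRNPA1 was -0.53. HNRNPCL1 had 419 reads in Smart-seq2 and 4 and 5 reads in LIEA of HBE and A549, a log2 ratio between methods of -5.61 (-7.50 to -4.25). HNRNPC itself had 12306, 3172 and 2356 reads, so the HNRNPCL1 row made up 3.29%, 0.126% and 0.212% of the reads of that pair. The rows of these copies are therefore read as uncertain, and when the 10 pseudogenes, antisense rows and members with a near-identical listed row were left out (HNRNPA1, HNRNPA3, HNRNPH2 and SNRPN among them, with HNRNPC kept), 12 members were higher and 14 lower of 64, with the same median of -0.51.

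The ratio between methods moved with the GC content of the transcript. Each gene was given the GC content of its annotated transcript nearest in length to the length implied by its values, available for 74 of the 75 members. The recovered length was within 5% of an annotated transcript for 53 members, and the matched transcript need not be the main one. Over the 72 compared members, Pearson's r between GC content and log2 ratio was 0.49 and Spearman's rho was 0.43. Over 11767 compared genes with a GC value, the values were 0.39 and 0.39. These correlations are across genes of the same 2 libraries and are given as a description. Against log2 length, r was 0.08 for the members and 0.18 for all compared genes, and rho was 0.06 and 0.24.

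The 15 members with a GC content under 40% had a median log2 ratio of -0.76, the 19 from 40 to 45% of -0.53 and the 14 from 45 to 50% of -0.74. The 10 from 50 to 55% had a median of 0.72 and the 14 at 55% and above of 1.14. In this last class, 11 of 14 were above 0, 7 were at least 2-fold higher in LIEA and 0 at least 2-fold lower. For all genes the medians of the 5 classes were -0.72, -0.34, 0.00, 0.38 and 0.81. Between the cell lines, where both libraries were made by LIEA, r with GC content was 0.20 for the members and 0.04 for all genes.

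After the median of genes in the same GC bin was subtracted, the median log2 ratio of the members between methods was -0.18, with 15 at least 2-fold higher (20.8%, background 24.9%) and 18 at least 2-fold lower (25.0%, background 21.0%). HNRNPUL2 stood at 4.99, PRPF19 at 4.51, U2AF2 at 3.59, HNRNPL at 3.54 and SF3A2 at 2.37 on this scale. Their ratios were thus above the median ratio of genes of like GC content.

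A sign that depended on the scaling was seen in 6 members that reached 1.5-fold under at least 1 scaling. SF3B1 was at 0.56 as deposited and -0.05 relative to genes of its length class, and HNRNPH3 at -0.52 as deposited and 0.20 relative to its GC bin. PRPF4B was at 0.04 as deposited, 0.75 relative to its GC bin and -0.57 relative to its length class. HNRNPDL was at -0.07 as deposited and 0.27 by GC bin, PRPF6 at 0.02 and -0.61, and U2AF1L4 at 0.55 and -0.08.

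**Figure D4:**
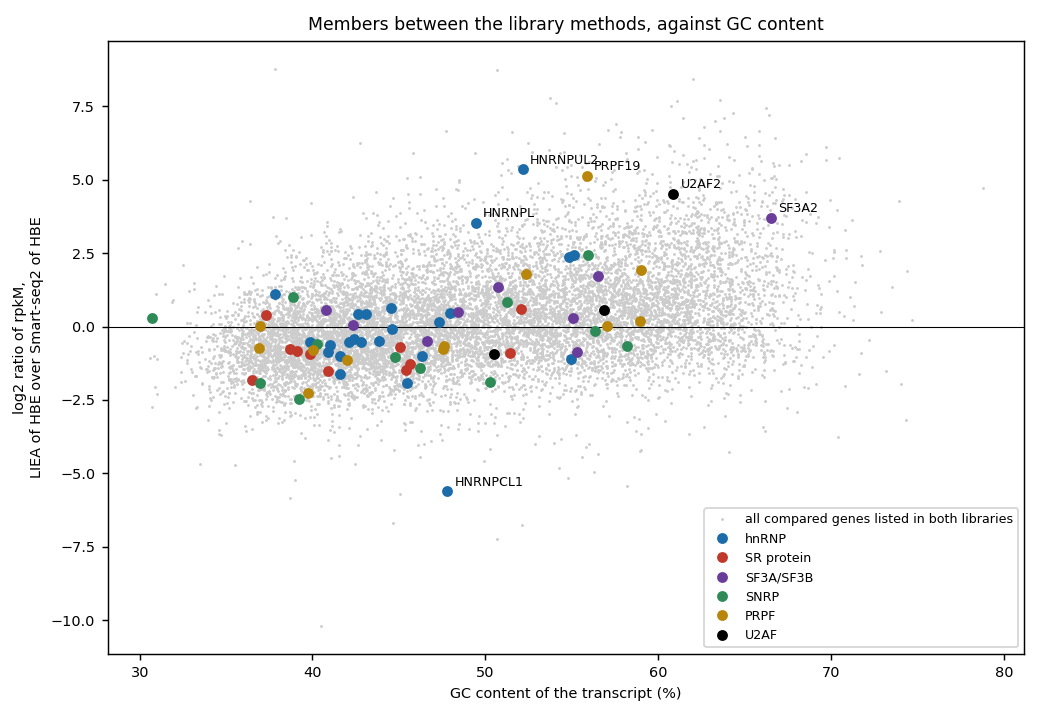
Log2 ratio of rpkM in LIEA of HBE over Smart-seq2 of HBE (vertical axis) against the GC content of the transcript in % (horizontal axis). Grey points are all compared genes listed in both libraries, and large points are compared members coloured by family. Members at 55% GC and above lie mostly above 0 (11 of 14), and HNRNPUL2, PRPF19, U2AF2, SF3A2, HNRNPL and HNRNPCL1 are labelled.

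Among the other splicing genes, 28 of 138 were at least 2-fold higher and 29 at least 2-fold lower in LIEA than in Smart-seq2, with a median log2 ratio of -0.10. These were 20.3% and 21.0%, against 28.7% and 21.0% of all genes. The highest was LSM7, a protein of the U6 snRNA-binding Lsm ring, with 121.5 rpkM in LIEA and 3.71 rpkM in Smart-seq2 (log2 ratio 5.03). The lowest was MAGOHB, an exon junction complex protein, with 1.22 and 14 rpkM (-3.52). By list, the numbers higher and lower were 8 and 4 of 24 other snRNP proteins, 2 and 4 of 8 Lsm ring genes, 3 and 9 of 21 Prp19 complex and catalytic step genes, 1 and 0 of 14 genes of 3′ splice site recognition, 4 and 1 of 20 SR-related genes, 0 and 3 of 7 exon junction complex genes, 10 and 2 of 31 other regulators and 0 and 6 of 13 snRNP assembly genes.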

How the data were processed

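The authors mapped the reads of each library with FANSe2 (version not given in the sources used here) to human RefSeq-RNA, summed splice variants per gene and deposited the result as log2 rpkM; the submitters' processing notes name hg19. Genes without reads are not listed. Repeated date-named rows, damaged gene symbols, were dropped (4 per library). Totals, reads and lengths were recovered from the values, with whole reads for 100% of 18856 genes, summing to 97.2 to 97.6% of the totals; the recovery was tested on simulated data. A gene's reads and length can both be too large by the same whole factor, which was put above 1 for SRSF3 and HNRNPA1P33 among the members and leaves rpkM as deposited.

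Genes with a mean of at least 1 rpkM in the 2 libraries were compared, and a gene unlisted in 1 of them was set at 3 reads as a bound. Transcripts came from GENCODE release 44 lifted to GRCh37, and copies were found with blastn 2.17.0. Scripts ran in Python 3.11.15 with pandas 2.3.3, scipy 1.17.1, numpy 2.4.6 and matplotlib 3.10.9. Alternatives were other scalings, a pseudocount of 1, other filters (that at 10 rpkM chosen after seeing the data), 1.5-fold and leaving out copies.

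Members and gene lists were chosen with earlier results of these data known. Named were the 3 highest members of each role group in LIEA of HBE, those at least 2-fold apart, the 5 highest and 5 lowest ratios per comparison, members unlisted in a library or changing sign between scalings at 1.5-fold or more, and the extremes of the other splicing genes. Others, among them U2AF1L4's neighbours and the copies, were named after their values were seen. The values and sequences of some members are not reported here, although these members are included in the counts.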

Additional observations from a re-analysis of the deposited data

How the results depend on the processing

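Of 58 values recomputed under an alternative, 56 were counted as unchanged. The medians kept their sign, but this count allowed shifts in size. The median log2 ratio between methods, for example, was -0.51 as deposited and -0.18 relative to the GC bin. The exceptions were counts at 1.5-fold in place of 2-fold: 22 members were then lower in A549 than in HBE (6 at 2-fold) and 33 lower in LIEA than in Smart-seq2 (17 at 2-fold), the lower limit itself admitting more genes. The median log2 ratio of the members lay between -0.32 and -0.15 for A549 against HBE and between -0.60 and -0.18 for LIEA against Smart-seq2, the weakest value of each being that relative to genes of the same GC bin. The filter at 10 rpkM, added after seeing the data, left 5 higher and 6 lower in A549. Depth limits the weakest members: U2AF1L4 had 13 reads in LIEA of HBE, and rows under 10 reads, such as HNRNPCL1 there, have intervals of several log2 units. No replicate could be left out. No paired analysis was possible because the values used here hold 1 library per condition. The paper describes a biological replicate of LIEA on HBE, for which no separate values were among those used here.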

Other observations

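Outside the families described, the largest differences between the cell lines among compared splicing genes were those of 2 regulators typical of epithelial cells. ESRP1 and ESRP2, which enforce epithelial exon choices, were at 38.9 and 44.4 rpkM in LIEA of HBE and at 21.5 and 20.6 rpkM in Smart-seq2 of HBE. In LIEA of A549, ESRP1 was not listed and ESRP2 was at 0.479 rpkM with 8 reads. With 3 reads taken as the limit for the unlisted gene, ESRP1 was at least 205-fold lower in A549, and ESRP2 had a log2 ratio of -6.53 (counting interval -7.75 to -5.55). The next largest falls were in genes of other lists: BCAS2 (log2 ratio -2.30, 71 reads in LIEA of HBE and 13 in A549), NHP2L1 (-1.99) and ZRSR2 (-1.85). NHP2L1 was at 112.6 rpkM in LIEA of HBE, 251.6 rpkM in Smart-seq2 of HBE and 28.4 rpkM in LIEA of A549. MBNL2, a muscleblind protein that switches exons during differentiation, followed at 15.2 rpkM in LIEA of HBE, 11.5 rpkM in Smart-seq2 of HBE and 4.38 rpkM in LIEA of A549 (log2 ratio -1.80, -2.16 to -1.45). Both HBE libraries were above A549 for each of these genes.

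Of the 6 kinases listed that phosphorylate SR proteins, 5 had log2 ratios below 0, against 55.5% of all compared genes. They are part of the list of 20 SR-related proteins and SR kinases. SRPK1 was at 38.1 rpkM in LIEA of HBE, 35.3 rpkM in Smart-seq2 of HBE and 12.4 rpkM in LIEA of A549 (log2 ratio -1.61), and CLK1 at 12.7, 9.45 and 4.62 rpkM (-1.46). SRPK2 had a log2 ratio of -1.01, CLK2 of -0.69 and CLK3 of -0.46, and CLK4 was at 0.21 with 25 and 26 reads. Of 13 compared genes of snRNP assembly, 5 were at least 2-fold lower in A549 and 0 at least 2-fold higher, against 20.2% and 18.8% of all genes. As deposited, 8 were below 0 and 5 above. After the median of all genes was subtracted, 2 of the 13 (15.4%) were at least 2-fold lower, against 16.7% of all genes. CLNS1A and WDR77 encode proteins that act with the methyltransferase PRMT5 on Sm proteins. CLNS1A was at 75.4 rpkM in LIEA of HBE, 175 rpkM in Smart-seq2 of HBE and 27.9 rpkM in LIEA of A549 (-1.44), and WDR77 at 37.5, 49.0 and 17 rpkM (-1.14). PRMT5 itself had a log2 ratio of -0.09, and the 5 above 0 were GEMIN7 (0.84), GEMIN8 (0.41), STRAP (0.31), GEMIN6 (0.25) and COPRS (0.25). These genes were named after their values were seen.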
